A study of Mus musculus with 34 samples.

Results

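The Hox genes described here were 38 members of the HoxA, HoxB, HoxC and HoxD clusters, chosen by name from the GENCODE annotation of the mouse genome (build mm10, 38 of 55413 annotated genes and of 21938 protein-coding genes). HoxA held 10 of the members (chr6:52162417-52260880), HoxB 10 (chr11:96194316-96368256), HoxC 9 (chr15:102921103-103036852) and HoxD 9 (chr2:74668310-74765142). ChIP-seq peaks were read at each promoter, taken as the window of 2.5 kb before and after the first base of the longest transcript, and over each cluster plus 50 kb to either side, which came to 885.0 kb in all. The starts of 5 pairs of members lay so close that their promoters overlapped (Hoxa3 with Hoxa6, Hoxa5 with Hoxa6, Hoxb7 with Hoxb8, Hoxc5 with Hoxc6 and Hoxd11 with Hoxd12), so these members shared some of their peaks. The longest transcript of Hoxa3 started next to Hoxa7, far upstream of the coding part of the gene.

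The cells were bone marrow-derived dendritic cells (BMDCs), grown from the marrow of C57BL/6 mice for 6 days with the growth factor GM-CSF. WT cells came from mice with a tamoxifen-inducible Cre (CreER) alone and KO cells from CreER;CTCF fl/fl mice, which also carry floxed Ctcf alleles. The animals were labelled 8 weeks old. Both genotypes received 4-OH tamoxifen on the first day of culture only, so the WT cells carried Cre and the drug too, and the deletion was induced at the start of differentiation. WT and KO cells were left unstimulated or stimulated with lipopolysaccharide (LPS) at 100 ng/ml for 3 h, giving the conditions WT, WTLPS, KO and KOLPS. For STAT5 the cells received GM-CSF again for 15 min, and this antibody was used in WT and KO only. Each antibody and condition was represented by 1 peak list (30 lists, with 4 input samples that had none), so no value below has a replicate error and no difference between conditions was tested. The lists carry no read totals, and a mark on fewer cells cannot be told apart from less of it per cell.

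Hox genes encode homeodomain transcription factors that give positional identity along the body axis, and the order of the genes along each cluster follows the order in which they are used. In cells that do not use them, Polycomb complexes cover the clusters with trimethylated lysine 27 of histone H3 (H3K27me3), while Trithorax-type enzymes place H3K4me3 at gene starts and H3K27ac marks active starts and enhancers. Promoters with both H3K4me3 and H3K27me3 are often called bivalent. CTCF, a zinc finger protein that halts cohesin, binds between Hox genes and can separate active from silent stretches of a cluster, and SMC1 is a subunit of cohesin. In blood cells, Hox genes of the A and B clusters are known from stem and progenitor cells and are turned down as cells mature.

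The sequences below are CTCF sites of the clusters with the letters of the CTCF motif near the summit, shown because they let called and lost sites be set side by side. They are the strongest 3 sites of each cluster in WT and the sites inside a cluster that were called in KO, where the motif lay within 100 bp of the summit with at most 1 fixed letter changed. They were read from the mm10 reference, 30 bases 5′ to 3′ on the strand of the motif, with the 12 bases of the match to a core of the CTCF motif in capitals. This core is CC, 3 free bases, AG, 2 free bases and GGC. With 1 fixed letter free, a match within 50 bp was also found in 29.3% of windows 1 kb to either side of the WT sites. Matches within 100 bp were not set against such windows.
Hoxa7 exon, chr6:52221800-52221829, minus strand, called in KO: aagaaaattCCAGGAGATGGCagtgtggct
Between Hoxb9 and Hoxb8, chr11:96278939-96278968, plus strand, called in KO: gcacagtggCCGCTAGATGGCatccttgct
Hoxb5 promoter, chr11:96303236-96303265, plus strand, called in KO: cgtcaatcgCCGGGAGGTGGCgcgctctgc
Between Hoxa11 and Hoxa13, chr6:52257112-52257141, plus strand, 1 fixed letter differs, called in KO: agcttgtcaACACGAGGTGGCgcccttgat
Between Hoxc9 and Hoxc8, chr15:102987584-102987613, plus strand, 1 fixed letter differs, called in KO: aacaagtgaACGCGAGGTGGCgctgttgct
Between Hoxd9 and Hoxd8, chr2:74702386-74702415, plus strand, 1 fixed letter differs, called in KO: cgcatttggCCACTAGAGAGCgctgttgct
Hoxa10 exon, chr6:52240532-52240561, minus strand, not called in KO: tcgcagccgCCACGAGATGGCgcactcccg
Between Hoxb13 and Hoxb9, chr11:96223998-96224027, minus strand, not called in KO: ccacagaggCCAGAAGAGGGCgccattttt
Between Hoxc10 and Hoxc9, chr15:102970927-102970956, minus strand, 1 fixed letter differs, not called in KO: tcttgctaaTCTCCAGGCGGCgctctcgcg
Hoxc5 promoter, chr15:103013646-103013675, plus strand, 1 fixed letter differs, not called in KO: acaaactgaCTGCTAGAAGGCcaagcgatg
Before Hoxd13, chr2:74663685-74663714, minus strand, 1 fixed letter differs, not called in KO: attaaactcCTGGCAGTTGGCaaatctgat

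The Hox promoters were marked by H3K27me3 almost without exception. An H3K27me3 peak lay at 38 of 38 promoters in WT and 35 in WTLPS, against 36 in KO and 29 in KOLPS. Among all protein-coding genes the share was 27.1% in WT and 20.8% in WTLPS, against 27.6% in KO and 11.8% in KOLPS. The median share of a Hox promoter covered by these peaks was 76.2% in WT and 56.6% in WTLPS, against 77.6% in KO and 14.8% in KOLPS. Hoxa9, which is known from myeloid progenitors and leukaemia, was covered by 100% in WT, WTLPS and KO and by 15.6% in KOLPS. Hoxc12, a posterior gene of HoxC, was covered by 100% in WT and 83.8% in WTLPS, against 100% in KO and 32.8% in KOLPS. By coverage, KOLPS was thus the lowest condition at both genes and at the median promoter. The fold enrichment of H3K27me3 at Hoxa9 had another order, at 4.68, 4.65, 4.11 and 5.42 in WT, WTLPS, KO and KOLPS. At Hoxc12 it was 4.02, 4.21, 4.00 and 3.86 in the same order. Coverage counts called bases and does not give the strength of the mark.

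Loss of an H3K27me3 call from WT to KO was limited to 2 of 38 promoters, Hoxb3 and Hoxb4, or 5.26%, where 16.1% of all marked promoters lost theirs. Both had been among the least covered members in WT, at 7.099% for Hoxb3 and 13.2% for Hoxb4. From WTLPS to KOLPS, 6 of 35 promoters lost the call (Hoxa2, Hoxa4, Hoxb5, Hoxb7, Hoxb9 and Hoxd4), or 17.1%, against 49.1% of all marked promoters. From WT to WTLPS the 3 losses were Hoxa5, Hoxb3 and Hoxb4, and 7 of 36 were lost from KO to KOLPS, with 29.1% and 58.2% lost among all promoters. In no comparison did a Hox promoter gain an H3K27me3 call. All members were marked in WT, which left none to gain it there, and among all unmarked promoters 6.74% gained it from WT to KO, 2.16% from WT to WTLPS, 1.61% from WTLPS to KOLPS and 0.416% from KO to KOLPS. At the stricter limit of a −log10 q of at least 3 the picture was different, with 12 Hox promoters marked in WT, 10 in WTLPS, 1 in KO (Hoxc13) and 1 in KOLPS (Hoxa9), where the share of all promoters was 1.46%, 1.14%, 0.729% and 0.310%. The heat map of promoter coverage shows the call and its extent for each gene.

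**Figure D1:**
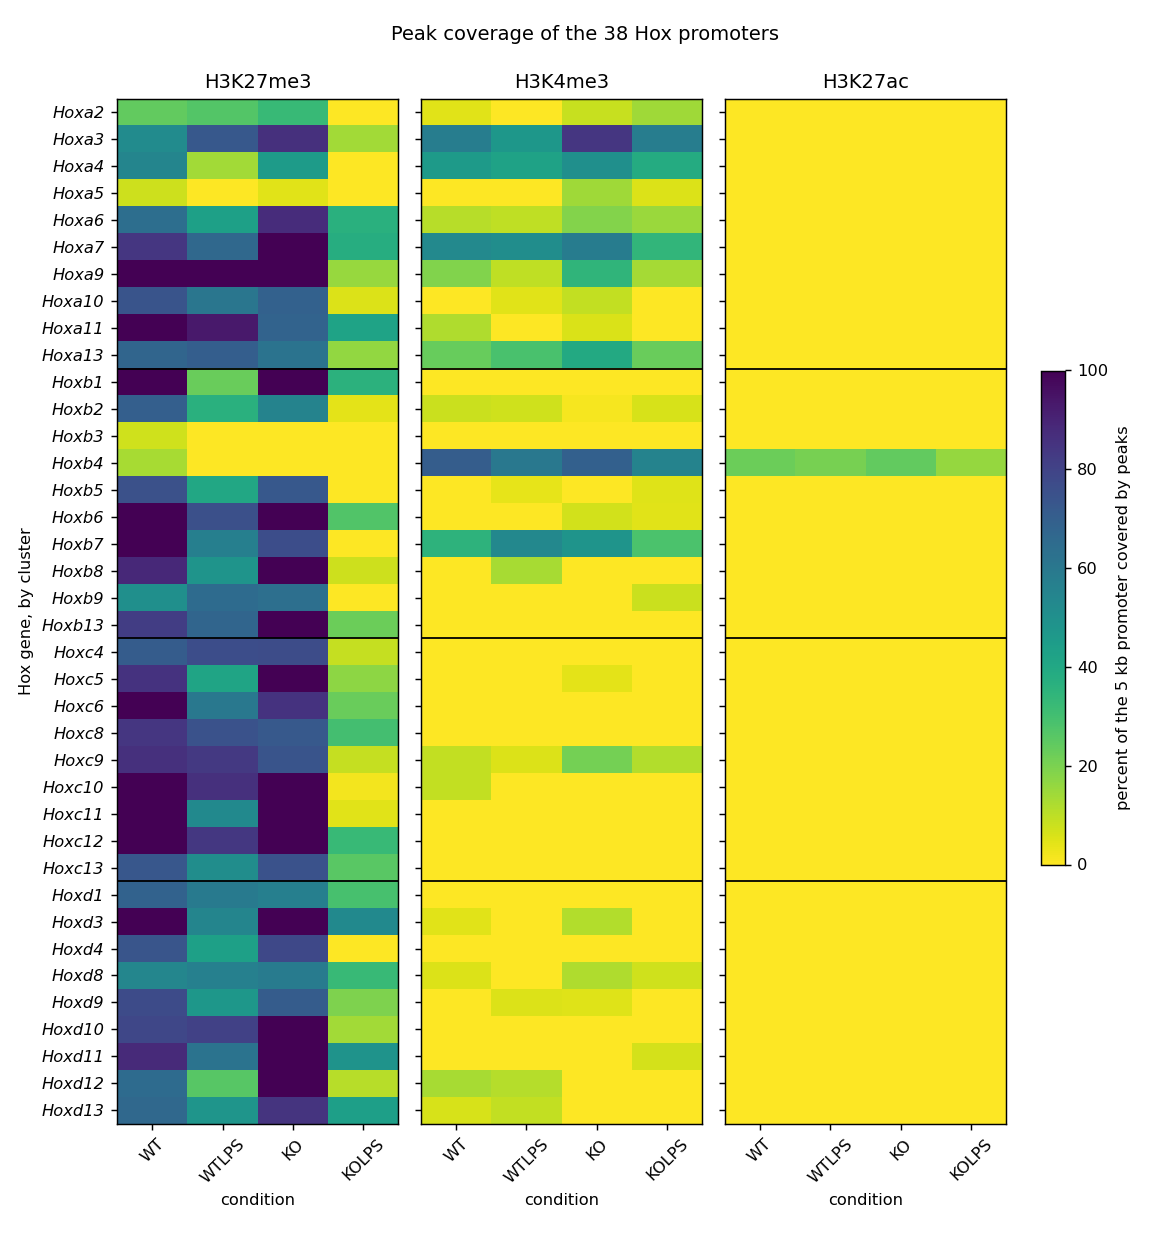
Heat map of the 38 Hox promoters (rows, by cluster) in WT, WTLPS, KO and KOLPS (columns) for H3K27me3, H3K4me3 and H3K27ac, with 1 list per condition; the colour gives the percent of each promoter window covered by peaks, from 0 to 100. H3K27me3 fills most rows except in KOLPS, H3K4me3 is widest at Hoxb4, Hoxa3, Hoxa7, Hoxa4 and Hoxb7, and H3K27ac is present at Hoxb4 alone.

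Other developmental homeobox genes, a list of 50 genes outside the clusters such as members of the Pax, Lhx, Irx and Nkx families and with Evx1 and Evx2 among them, carried H3K27me3 at 48, 48, 50 and 41 promoters in WT, WTLPS, KO and KOLPS. Their median coverage was 72.5%, 43.8%, 68.7% and 13.1% in the same order, above which the Hox medians lay in each condition. The share of promoters with a call was higher at the Hox genes in WT only (38 of 38 against 48 of 50), at 92.1% against 96% in WTLPS, 94.7% against 100% in KO and 76.3% against 82% in KOLPS. No difference between the lists was tested.

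H3K4me3, the mark of Trithorax-type enzymes, was found at fewer Hox promoters and was weak at most of them. A peak lay at 17 of 38 promoters in WT and 16 in WTLPS, against 19 in KO and 17 in KOLPS, with 56.7%, 57.0%, 57.2% and 56.2% among all protein-coding genes. The median fold enrichment of the strongest peak at the marked Hox promoters was 5.83, 6.499, 4.998 and 5.26 in WT, WTLPS, KO and KOLPS, and at all marked promoters it was 28.2, 28.3, 25.9 and 19.3. In each of the 4 lists the same 4 Hox genes, Hoxa3, Hoxa4, Hoxa7 and Hoxb4, reached a fold enrichment of 10. Between 82.2% and 86.7% of all marked promoters did so.

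The A cluster held more H3K4me3-marked promoters than any other cluster. It was present at 8, 7, 10 and 8 of the 10 HoxA members in WT, WTLPS, KO and KOLPS, at 3, 5, 4 and 6 of the 10 HoxB members, at 2, 1, 2 and 1 of the 9 HoxC members and at 4, 3, 3 and 2 of the 9 HoxD members. The 10 promoters with H3K4me3 in all 4 lists were Hoxa3, Hoxa4, Hoxa6, Hoxa7, Hoxa9, Hoxa13, Hoxb2, Hoxb4, Hoxb7 and Hoxc9, and 12 promoters had it in none. The 12 included Hoxb1, Hoxb3 and Hoxb13 and were otherwise members of HoxC (Hoxc4, Hoxc6, Hoxc8, Hoxc11, Hoxc12 and Hoxc13) and HoxD (Hoxd1, Hoxd4 and Hoxd10).

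The fold enrichment of H3K4me3 at Hoxa4, an anterior gene of the A cluster, was 17.5 in WT and 17.6 in WTLPS, against 19.54 in KO and 16.5 in KOLPS. At Hoxa7 it was 16.1, 17.2, 11.4 and 11.3 in the same order, and at Hoxa3 it was 12.5, 18.6, 12.7 and 11.8. Hoxa4 varied least, Hoxa7 was lower in both KO conditions than in both WT conditions, and Hoxa3 stood apart only in WTLPS. These values were not adjusted for the medians over all marked promoters, which were 28.2, 28.3, 25.9 and 19.3 in the same order.

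A larger share of Hox promoters than of all promoters changed its H3K4me3 call. From WT to KO, 3 of 17 Hox promoters lost the call (Hoxc10, Hoxd12 and Hoxd13), or 17.6%, against 1.89% of all marked promoters. In the same comparison 5 of 21 gained it (Hoxa5, Hoxa10, Hoxb6, Hoxc5 and Hoxd9), or 23.8%, against 3.73%. From WTLPS to KOLPS, 5 of 16 lost it (31.25%, against 3.08%) and 6 of 22 gained it (27.3%, against 2.22%). From WT to WTLPS, with no change of genotype, 5 of 17 were lost (29.4%, against 1.36%) and 4 of 21 gained (19.05%, against 2.62%). From KO to KOLPS, 5 of 19 were lost (26.3%, against 2.76%) and 3 of 19 gained (15.8%, against 1.38%). The 16 promoters called in some lists and not in others had fold enrichments of 3.18 to 9.28 where called, with a median of 4.23. The 10 promoters called in all lists had 4.23 to 28.2, with a median of 7.30, so the levels of these groups overlapped. Hox promoters and all promoters were not matched for peak strength. Counted by H3K4me3 peaks over the clusters plus flanks, the contrast was smaller. Of WT peaks 26.8% had none in KO, against 20.4% of all WT peaks, and of WTLPS peaks 25.7% had none in KOLPS, against 26.6%. In the other direction it was 44.2% of KO peaks, against 24.3%, and 39.5% of KOLPS peaks, against 14.7%.

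Genes with opposite H3K4me3 calls in the 2 genotypes, both without and with LPS, were few. Hoxd12 and Hoxd13, posterior genes at the 5′ end of HoxD known for their role in limbs, had H3K4me3 in WT and WTLPS and in neither KO condition. Hoxd12 had a fold enrichment of 8.07 in WT and 9.28 in WTLPS, and Hoxd13 had 4.03 and 4.18. In KO and KOLPS a weaker peak remained between them, 2855 and 2947 bp from the Hoxd12 start and so just outside its promoter window, with a fold enrichment of 4.54 and 4.23. Hoxa5 and Hoxb6 had the opposite pattern, with a fold enrichment at Hoxa5 of 4.54 in KO and 4.23 in KOLPS and at Hoxb6 of 3.63 in KO and 4.23 in KOLPS.

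Outside KOLPS, nearly all members with H3K4me3 carried H3K27me3 too. As H3K27me3 was called at 38, 35 and 36 of 38 promoters in WT, WTLPS and KO, this followed largely from its near-general presence. Both marks were called at 17 promoters in WT and 15 in WTLPS, against 18 in KO and 10 in KOLPS, and at 13.6%, 11.1%, 14.3% and 6.41% of all protein-coding genes. Over the clusters plus flanks, 53.2% of the bases in H3K4me3 peaks also lay in H3K27me3 peaks in WT and 35.9% in WTLPS. The share was 59.7% in KO and 7.48% in KOLPS. Of all bases there, H3K27me3 peaks held 73.0%, 52.1%, 71.8% and 24.03% in WT, WTLPS, KO and KOLPS. H3K4me3 bases thus lay in H3K27me3 less often than all bases of the region did in each list. By single cluster, the order was the other way in HoxD in WT and KOLPS and in HoxA in KO. In KOLPS, 7 promoters carried H3K4me3 without H3K27me3, namely Hoxa2, Hoxa4, Hoxa5, Hoxb4, Hoxb5, Hoxb7 and Hoxb9.

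Hoxb4, a gene known for the self-renewal of blood stem cells, was the member with the strongest active marks. Its H3K4me3 fold enrichment was 25.1 in WT and 23.2 in WTLPS, against 28.2 in KO and 21.2 in KOLPS, and the peaks covered 70.4%, 59.8%, 69.2% and 55.4% of the promoter. It was the only Hox promoter with H3K27ac, at a fold enrichment of 7.82 in WT and 8.77 in WTLPS, against 9.72 in KO and 8.33 in KOLPS. H3K27ac was called at 44.1%, 41.3%, 44.5% and 40.8% of all protein-coding promoters in the same order, against 1 of 38 members in each. No Hox promoter changed its H3K27ac call, while among all promoters 6.83% of those marked lost it and 6.07% of those unmarked gained it from WT to KO. The shares lost and gained were 10.3% and 6.44% from WTLPS to KOLPS, 11.8% and 4.21% from WT to WTLPS, and 12.5% and 3.34% from KO to KOLPS. H3K27me3 touched the Hoxb4 promoter in WT alone, with a fold enrichment of 3.11. Its H3K4me3 and H3K27ac peaks were thus called in every condition.

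The 250 bases upstream of the Hoxb4 start in the RefSeq promoter table (mm10, chr11:96318017-96318266, plus strand) are shown because the H3K27ac and H3K4me3 peaks overlap them, with the 14 CpG dinucleotides in capitals. The H3K4me3 peaks covered them whole in each list, and the H3K27ac peaks in KO and KOLPS, while in WT and WTLPS H3K27ac reached only their part nearest to the start. A search of these bases on both strands found neither CCAAT nor CACGTG.
Hoxb4 promoter: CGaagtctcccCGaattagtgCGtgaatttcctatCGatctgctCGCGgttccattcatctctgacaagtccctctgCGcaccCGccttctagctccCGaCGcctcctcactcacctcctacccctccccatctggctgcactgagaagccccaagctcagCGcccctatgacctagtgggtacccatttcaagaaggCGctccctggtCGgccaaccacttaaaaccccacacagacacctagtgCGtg
In that table, 24 promoters of 22 members were found (300 bases around each start), with a median of 14.5 CpG against 7 over all 32851 promoters. CCAAT was present in 62.5% of the member promoters and 37.4% of all, and CACGTG in 20.8% and 7.15%. HoxC was represented there by Hoxc4 alone and HoxB by Hoxb1, Hoxb4 and Hoxb8. The member promoters and all promoters were not matched for CpG, which CACGTG contains.

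The active marks of HoxB extended over the 17.2 kb from the end of Hoxb5 to the start of Hoxb3 (chr11:96306122-96323326), the stretch that holds Hoxb4. H3K4me3 peaks covered 6.78 kb of it in WT and 6.00 kb in WTLPS, against 6.52 kb in KO and 5.71 kb in KOLPS. H3K27ac peaks numbered 2 in WT and 4 in WTLPS, against 8 in KO and 6 in KOLPS and covered 1.12, 1.52, 3.21 and 2.25 kb. In WT the summits of both H3K27ac peaks lay close to the Hoxb4 start, at 544 and 1230 bp. In WTLPS further summits lay 3780 and 7341 bp upstream, with fold enrichments of 5.01 and 3.64. In KO 6 peaks lay upstream, from 2696 bp to beyond 7335 bp, with fold enrichments of 4.58 to 7.44, and in KOLPS 5 peaks lay 3342 to 7448 bp upstream, with fold enrichments of 3.89 to 8.89. The upstream peaks were thus absent from WT alone, and more of them were called in the KO conditions. Across the genome H3K27ac covered 60.9 Mb in WT and 59.6 Mb in WTLPS, against 41.3 Mb in KO and 32.4 Mb in KOLPS. The KO lists were thus smaller in bases but not in peak number, at 83461, 77050, 81404 and 78202. Their peaks were narrower, with median widths of 369, 392, 271 and 242 bp in the same order. Over the clusters plus flanks, 6 of 9 KO peaks had none in WT, against 34.6% of all KO peaks. For KOLPS peaks without one in WTLPS it was 5 of 8, against 35.7%. In the other direction it was 0 of 3 WT peaks, against 52.8%, and 4 of 7 WTLPS peaks, against 58.8%. When each list was reduced to its strongest peaks up to the bases of the smallest list, the counts were 1, 1, 6 and 6 in WT, WTLPS, KO and KOLPS.

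**Figure D2:**
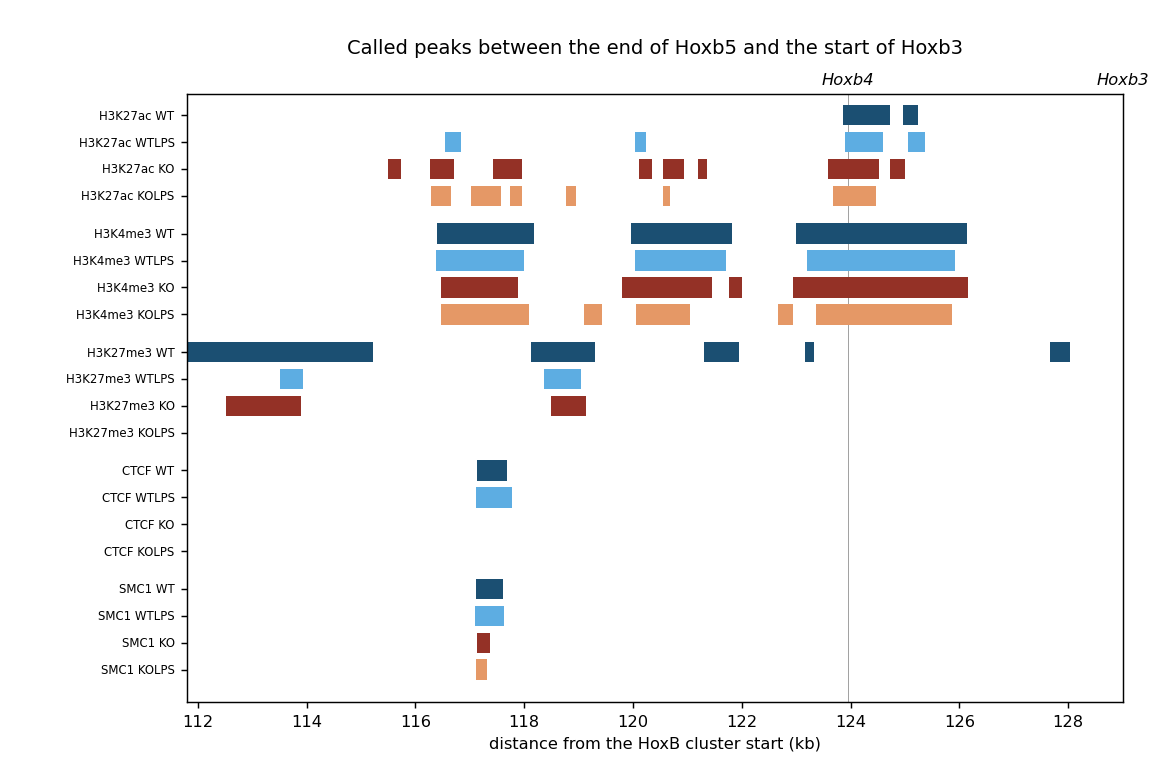
Called peaks of H3K27ac, H3K4me3, H3K27me3, CTCF and SMC1 in the 4 conditions between the end of Hoxb5 and the start of Hoxb3, as bars along the distance in kb from the HoxB cluster start, with the Hoxb4 start as a vertical line. H3K27ac lies beside Hoxb4 alone in WT (2 peaks) and reaches upstream in WTLPS, KO and KOLPS (4, 8 and 6 peaks), H3K4me3 is in place in all conditions, and the CTCF peak is missing from both KO lists.

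H3K27me3 in the same stretch was most extensive in WT. These peaks covered 5.74 kb in WT and 1.12 kb in WTLPS, against 2.01 kb in KO and none in KOLPS. The CTCF site upstream of Hoxb4, 117.5 kb after the cluster start, had a fold enrichment of 11.8 in WT and 6.62 in WTLPS and was not called in KO or KOLPS. SMC1 at this place was called in all lists, with a fold enrichment of 6.87 in WT and 6.80 in WTLPS, against 3.47 in KO and 3.64 in KOLPS. It was therefore a place where SMC1 was called without CTCF in KO.

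Over the clusters plus flanks, H3K27me3 covered 646.0 kb in WT and 461.0 kb in WTLPS, against 635.1 kb in KO and 212.7 kb in KOLPS. The ratio of KO to WT was 0.983, against 0.964 over the whole genome, and the ratio of KOLPS to WTLPS was 0.461, against 0.330. With LPS the ratio was 0.714 in WT, against 0.484 over the genome, and 0.335 in KO, against 0.166. With all deposited peaks, the clusters thus kept a larger share of their H3K27me3 bases than the genome did. The 4 lists had very different sizes (117.0 Mb in WT and 56.7 in WTLPS, against 112.8 in KO and 18.7 in KOLPS), and the part of library quality in this was not tested. The study states read totals of the same order for these libraries, higher for KOLPS than for WTLPS, and the part of read depth was not tested either.

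Counted with 50 kb to either side, HoxC was the most fully covered cluster by all deposited peaks. H3K27me3 peaks held 86.4% of these bases in WT and 66.7% in WTLPS, against 86.6% in KO and 33.0% in KOLPS. HoxA had 67.3%, 49.6%, 63.4% and 19.2%, HoxB had 67.7%, 41.5%, 64.7% and 18.5%, and HoxD had 71.3%, 53.3%, 73.8% and 26.8%. KOLPS was lowest and WTLPS second lowest in all 4 clusters, and HoxC led in all 4 lists. Without flanks, the shares in WT and KO were 93.9% and 92.1% in HoxC and 58.9% and 61.1% in HoxA. In HoxB they were 67.6% and 66.5%, and in HoxD 78.3% and 87.9%. The order of WT and KO in HoxA and HoxC was thus not the same as with flanks. With flanks and a −log10 q of at least 3 the order of the clusters was another. HoxD (39.0 kb) and HoxA (35.6 kb) then held more H3K27me3 than HoxC (29.0 kb) in WT, as they did in WTLPS.

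With each list reduced to the 18.7 Mb of its strongest peaks, the clusters kept 449.7 kb in WT and 314.6 kb in WTLPS, against 434.2 kb in KO and 212.7 kb in KOLPS. At equal bases the clusters were thus lower in both LPS lists although the genome total was held the same, so the larger share kept by the clusters did not hold there. With a −log10 q of at least 3 they fell from 108.0 kb in WT to 16.2 kb in KO, where the peaks of the whole list at that limit went from 926 to 625. HoxB was at equal bases lower in KO than in WT (91.8 against 115.3 kb), as was HoxC (143.5 against 157.4 kb), and HoxD higher (110.1 against 89.2 kb), while HoxA was nearly level (88.9 against 87.8 kb).

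**Figure D3:**
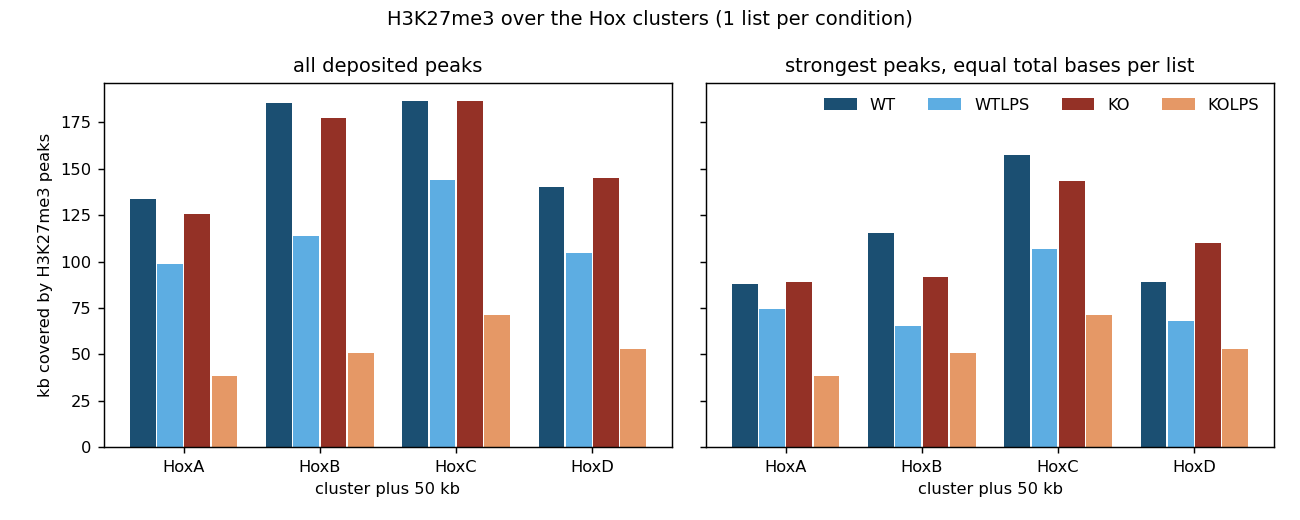
Bars of the kb covered by H3K27me3 peaks in each cluster plus 50 kb for WT, WTLPS, KO and KOLPS (1 list per condition, so no error bars), with all deposited peaks on the left and equal total bases per list on the right. KOLPS is the lowest bar of every cluster in both panels, and WT and KO stand close to each other with all peaks.

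The longest H3K27me3 domain, with gaps of up to 1 kb joined, was shortest in KOLPS and next shortest in WTLPS in each cluster. With peaks joined across gaps of up to 1 kb, the longest domain of HoxC was 128.9 kb in WT and 28.7 kb in WTLPS, against 56.7 kb in KO and 6.57 kb in KOLPS. In HoxB it was 51.6, 18.8, 45.3 and 5.18 kb, in HoxD 37.3, 15.7, 42.7 and 5.68 kb, and in HoxA 24.3, 20.8, 39.7 and 9.17 kb. The longest domain was thus shorter in KO than in WT in HoxB and HoxC and longer in HoxA and HoxD. It was sought over each cluster plus 50 kb and did not always lie at the same place. In HoxA it ran from 72.8 to 97.1 kb after the cluster start in WT, and from 99.1 to 138.8 kb, in the flank, in KO. In HoxD it lay before the cluster, from -37.9 to -0.53 kb in WT and from -56.0 to -13.3 kb in KO. The lengths in HoxA and HoxD therefore do not compare like places. With gaps of up to 5 kb joined, HoxC held a single domain in WT (227.9 kb) and in KO (216.3 kb). Each filled most of the 215.75 kb searched and ran past an edge of it. These lengths were thus set largely by the window and cannot show whether the difference remained. In HoxA the order turned, with 109.3 kb in WT and 104.8 kb in KO, where both domains ran past the end of the window. In HoxD the domain of WTLPS was then the longest, at 163.9 kb, against 158.7 kb in WT and 160.5 kb in KO.

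A long stretch without H3K27me3 lay inside HoxB. The longest stretch of HoxB without H3K27me3 was 13.1 kb in WT and 24.7 kb in WTLPS, against 25.7 kb in KO and 51.0 kb in KOLPS. It held the start of Hoxb3 in WT, those of Hoxb3 and Hoxb4 in WTLPS and KO, and those of Hoxb3, Hoxb4 and Hoxb5 in KOLPS. Hoxb2 and Hoxb1, on its far side, were covered by 69.8% and 100% in WT. In HoxA the longest such stretch was 7.49, 14.2, 7.29 and 46.8 kb, and it held no member start in WT and KO. In KOLPS it ran from the cluster start past Hoxa2, Hoxa4, Hoxa5 and Hoxa6. HoxC had none longer than 5.96 kb in any list, and HoxD reached 11.1 kb in KOLPS, around Hoxd4.

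The long posterior H3K27me3 domain of HoxA, with gaps of up to 5 kb joined, started 44.3 kb after the cluster start in WT, 45.4 kb in WTLPS and 44.4 kb in KO. In KOLPS this domain was broken up, the first H3K27me3 of this side lay at 46.8 kb and the longest piece ran from 76.2 to 118.6 kb. The CTCF site nearest to the start of the domain in WT, 49.35 kb after the cluster start in an intron of Hoxa3, had a fold enrichment of 10.1 in WT and 5.74 in WTLPS and was not called in KO or KOLPS. In HoxB the H3K27me3 before the free stretch ended at 128.0, 119.0, 119.1 and 103.8 kb. The maps of the clusters show these borders and the CTCF and SMC1 sites.

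**Figure D4:**
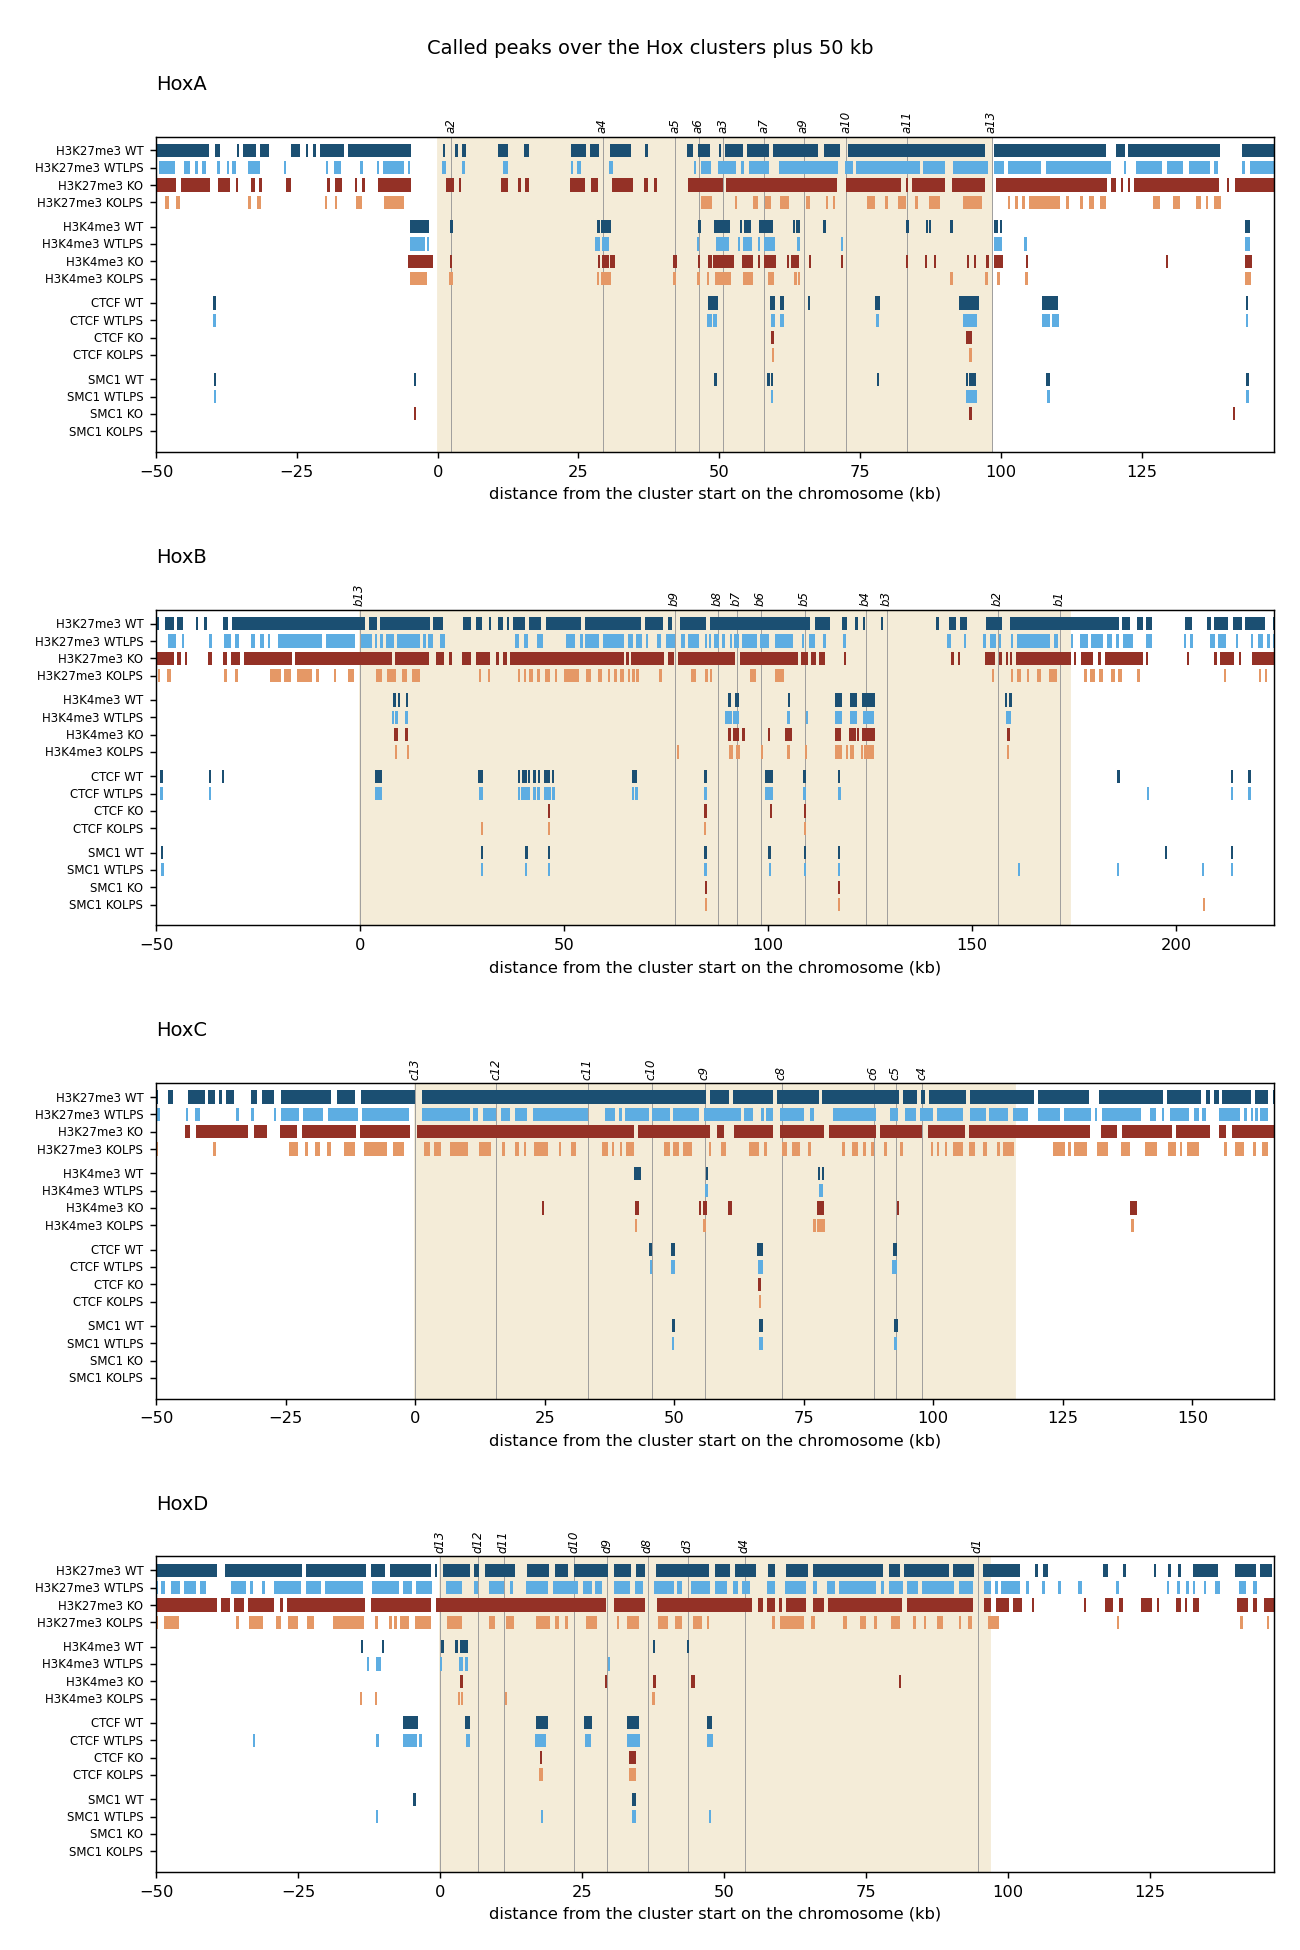
Maps of the 4 clusters (shaded) plus 50 kb, with each called H3K27me3, H3K4me3, CTCF and SMC1 peak as a bar along the distance in kb from the cluster start, a row for each antibody and condition, and member starts as vertical lines. H3K27me3 is densest in HoxC in WT and KO and sparse in KOLPS, and the CTCF rows fall from 41 peaks in WT to 9 in KO.

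CTCF sites lay mostly among the posterior genes of HoxA, HoxB and HoxD. The lists held 41 CTCF sites in the clusters plus flanks in WT (11 in HoxA, 20 in HoxB, 4 in HoxC and 6 in HoxD), 42 in WTLPS, 9 in KO and 9 in KOLPS. In WT the longest stretch of HoxA without CTCF was 48.0 kb, from the cluster start over Hoxa2, Hoxa4, Hoxa5 and Hoxa6. In HoxB it was 56.3 kb over Hoxb4, Hoxb3, Hoxb2 and Hoxb1, and in HoxD 48.9 kb over Hoxd4 and Hoxd1. These genes lie towards the anterior end of their clusters. HoxC was the exception, with its longest stretch of 45.2 kb over the posterior genes Hoxc13, Hoxc12 and Hoxc11. In KO the same stretches grew to 59.2 kb in HoxA, 64.8 kb in HoxB, 66.3 kb in HoxC and 62.4 kb in HoxD.

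Of the 41 CTCF sites in WT, 9 were still called in KO (21.95%, Wilson 95% interval 12.003 to 36.7, counting error only) and 32 were not, where 76.3% of all CTCF peaks in WT were not called in KO. Of the 42 sites in WTLPS, 9 were called in KOLPS (21.4%, 11.7 to 35.9), where 82.5% of all peaks were not. The share still called among all peaks, 23.7% in KO and 17.5% in KOLPS, lay within the interval of the Hox sites in both comparisons. By contrast, 37 of the 41 WT sites were called in WTLPS (90.2%). In WT to KO the 9 sites all lay inside the clusters, at 9 of 30 sites (30%, 16.7 to 47.9), with 0 of 11 in the flanks (0 to 25.9). These intervals overlapped, and that of the flanks also held the 23.7% of all peaks. Sites inside and in the flanks were not matched for peak strength, so the counts do not show an effect of position.

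The sites that remained were mostly among the stronger ones in WT, as was so over all CTCF peaks, but the 2 groups overlapped. Their fold enrichment in WT ranged from 9.29 to 44.96 with a median of 18.6, and that of the sites not called in KO from 3.41 to 14.8 with a median of 7.18. Among sites with a fold enrichment of 10 or more, 8 of 17 were called in KO, or 47.1%, against 59.7% of all such peaks. Among weaker sites 1 of 24 was called, or 4.17%, against 3.58%. With an SMC1 peak in WT 8 of 21 sites were called in KO (38.1%, against 39.9%), and without SMC1 1 of 20 (5%, against 4.50%). Sites whose summit lay in H3K27me3 were called in 7 of 29 cases, or 24.1% (12.2 to 42.1), where the share of all such peaks was 10.7%, and sites outside H3K27me3 in 2 of 12 (16.7%). From WTLPS to KOLPS the shares were 3 of 19 inside (15.8%, 5.52 to 37.6, against 8.30% of all such peaks) and 6 of 23 outside (26.1%), so the order of the groups was not the same.

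The 5 strongest sites in WT were all called in KO at a lower level. The site between Hoxb13 and Hoxb9, 46.2 kb after the HoxB start, had a fold enrichment of 44.96 in WT and 37.3 in WTLPS, against 9.11 in KO and 7.33 in KOLPS. The site between Hoxd9 and Hoxd8 had 34.4, 22.9, 17.2 and 12.04, and the site between Hoxa11 and Hoxa13 had 32.3, 28.9, 9.62 and 8.11. The first of these fell to the fifth place among the KO peaks, while the one between Hoxd9 and Hoxd8 was the highest CTCF peak of the clusters in both KO lists.

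Next came the site between Hoxb9 and Hoxb8, with a fold enrichment of 24.9 in WT and 22.9 in WTLPS, against 12.7 in KO and 8.11 in KOLPS. The site in an exon of Hoxd11 had 18.6, 14.6, 4.81 and 4.19. The site in an exon of Hoxa7, which lay in that gene's promoter window, had 12.5, 10.1, 10.4 and 8.64, so it was the site that differed least between WT and KO.

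The remaining 3 of the 9 sites lay between Hoxc9 and Hoxc8 (13.7, 9.05, 7.60 and 5.50), in an intron of Hoxb6 (12.2, 14.1 and 4.30, not called in KOLPS) and at the Hoxb5 promoter (9.29, 9.27, 5.06 and 5.50). All 9 had a lower fold enrichment in KO than in WT, with a median ratio of 0.5004, as did 95.5% of all CTCF peaks called in both lists, with a median ratio of 0.350. The strongest site not called in KO lay in the Hoxc5 promoter, with a fold enrichment of 14.8 in WT and 11.3 in WTLPS. The site in an exon of Hoxa10 had 10.3 and 7.72, the one between Hoxc10 and Hoxc9 had 9.92 and 12.4, and the one before Hoxd13 had 9.29 and 8.60, and none of these was called in KO or KOLPS. The site 29.8 kb after the HoxB start was not called in KO but was called in KOLPS, at a fold enrichment of 4.19, against 13.1 in WT and 15.0 in WTLPS. The plot of CTCF fold enrichment sets the sites in order.

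**Figure D5:**
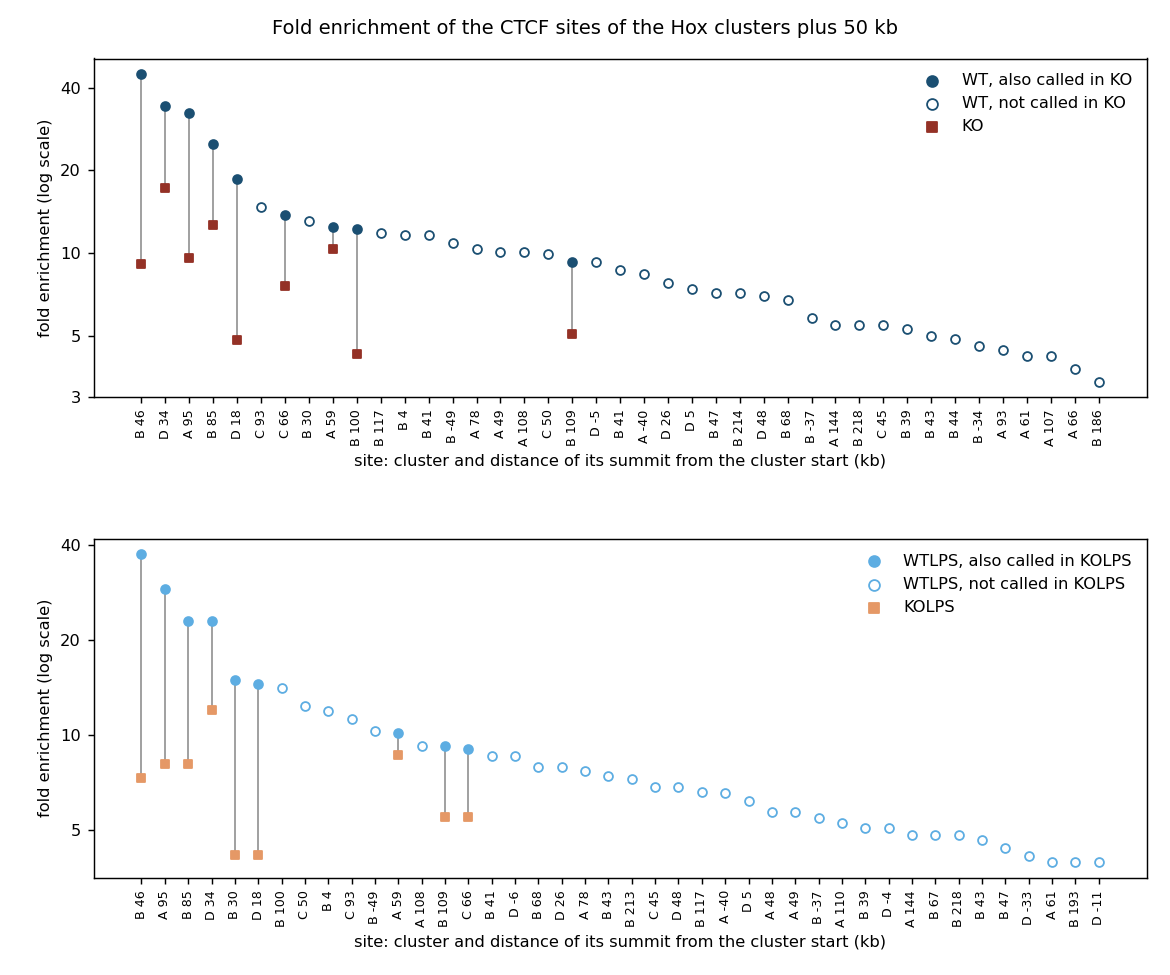
CTCF fold enrichment (log axis) at each site of the clusters plus 50 kb, in order of the level in WT (top) and WTLPS (bottom), with filled points for sites also called in KO or KOLPS, open points for those not called, and squares for the level in KO or KOLPS; the labels give the cluster and the distance of the summit from the cluster start in kb. The sites called in both lists stand mostly towards the left, and every square lies below its point.

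The core of the CTCF motif given above, sought on both strands within 50 bp of the summit, were found at 9 of the 41 WT sites (21.95%, 12.003 to 36.7), at 30.5% of all CTCF peaks in WT and in 1.88% of windows of the same length 1 kb to either side. The motif was present at 2 of the 9 sites called in KO and at 7 of the 32 not called, at a similar share in both. None of the 4 HoxC sites held it. With 1 of the 7 fixed letters free, 48.8% of the Hox sites and 53.9% of all peaks held a match, against 29.3% of the windows 1 kb to either side of the Hox sites and 19.05% of those of all peaks. The strongest site, between Hoxb13 and Hoxb9, had no match within 100 bp of its summit, and neither did the sites in Hoxb6 and Hoxd11. These letters are a description of the windows and not a measure of binding.

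SMC1 peaks were also lost at most sites of the clusters. SMC1 had 25 sites in WT and 24 in WTLPS, against 5 in KO and 3 in KOLPS, and 22 of the 25 WT sites overlapped a CTCF peak. In KO 4 of the 25 were called (16%, 6.40 to 34.7) and 21 were not, where 65.5% of all SMC1 peaks were not called. In KOLPS 3 of the 24 WTLPS sites were called (12.5%, 4.34 to 31.0), and over the whole list 76.7% were not. With a CTCF peak, 3 of 22 Hox sites were called in KO, or 13.6%, against 16.3% of all such SMC1 peaks. Without CTCF, 1 of 3 was called, against 55.7%. HoxC and HoxD had no SMC1 peak in either KO list.

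The SMC1 sites that remained were few. The site between Hoxa11 and Hoxa13 had a fold enrichment of 13.1 in WT, 11.2 in WTLPS and 3.79 in KO, and was not called in KOLPS. The site between Hoxb9 and Hoxb8 had 12.2, 13.6, 5.36 and 4.73. Both coincided with CTCF sites that were called in KO. The third lay upstream of Hoxb4, as described above, and the fourth beside Hotairm1, a non-coding RNA gene at the anterior end of HoxA, with a fold enrichment of 3.59 in WT and 3.63 in KO.

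At the promoters themselves, CTCF peaks were found at 12 of 38 members in WT and 10 in WTLPS, against 4 in KO and 3 in KOLPS, where the shares of all protein-coding genes were 29.5%, 27.2%, 19.1% and 10.1%. SMC1 peaks were found at 6, 5, 0 and 0 members, against 30.4%, 27.1%, 21.6% and 13.9% of all. H3K4me1, a mark of enhancers and of the edges of active starts, was called at 17, 12, 19 and 6 members, against 57.1%, 57.3%, 56.8% and 46.5% of all genes, and covered 46.1, 49.9, 50.7 and 15.1 kb of the clusters plus flanks. KOLPS was lowest again, and H3K4me1 over the genome was lower there too, at 148.6 Mb against 258.9 Mb in WT. The study states its lowest H3K4me1 read total for KOLPS, and the part of read depth in this was not tested.

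The factors of the LPS and GM-CSF response had few or no peaks at the clusters. No p65 peak lay in the clusters or flanks in any of the 4 lists, which held 781, 5465, 504 and 1752 peaks in all in WT, WTLPS, KO and KOLPS. STAT5 had a single peak, in the flank of HoxA near Hottip, a non-coding RNA gene beside Hoxa13, with a fold enrichment of 8.59 in WT and 6.29 in KO, from lists of 8185 and 6850 peaks. Lists this short would place only a few peaks in 885.0 kb if spread evenly, so these counts are not read as low. In WTLPS a pair of H3K27ac peaks had summits 3403 and 4299 bp from the Hottip start, with fold enrichments of 3.19 and 5.46, and no other list had H3K27ac at this place. Hotairm1 had H3K27ac in all lists, at a fold enrichment of 5.98, 4.10, 7.44 and 6.11 in WT, WTLPS, KO and KOLPS.

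The genes next to the clusters were not alike. Evx1 and Evx2, homeobox genes beside HoxA and HoxD, were covered by H3K27me3 like the Hox genes, with 100%, 57.0%, 64.4% and 7.92% of the promoter at Evx1 and 82.3%, 83.1%, 100% and 30.1% at Evx2. Hotair, a non-coding RNA gene within HoxC, had 100%, 100%, 100% and 36.1%. Skap2, an adaptor gene beyond the anterior end of HoxA, had no H3K27me3 in any list, and its H3K27ac covered 76.7%, 72.7%, 63.6% and 41.6% of the promoter. Of 16 neighbours, H3K27me3 was called at 10, 9, 10 and 6.

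The genes for partners and regulators of the Hox proteins nearly all carried H3K4me3. Of 9 genes for Hox cofactors of the Pbx and Meis families and their kin, 9 had H3K4me3 in each list, and 5, 5, 6 and 4 had H3K27me3 too. Meis1, a cofactor of Hoxa9 in leukaemia, gained an H3K27ac call from WT to KO and lost it from WTLPS to KOLPS. Of 29 genes for Polycomb proteins, 29 had H3K4me3 in each list and 10, 11, 11 and 3 had H3K27me3. Of 11 genes for Trithorax-type enzymes and H3K27 demethylases, 9 had H3K4me3 and H3K27ac in each list, and Kmt2a, which encodes the H3K4 methyltransferase MLL1, had an H3K27me3 call in KO alone.

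The label of the cells was checked against marker genes. Of 16 markers of dendritic and myeloid cells, 16 had H3K4me3 and 15 had H3K27ac in each list. Of 26 markers of other cell types, including stem and progenitor cells, 12, 11, 11 and 11 had H3K4me3 and 4, 4, 3 and 2 had H3K27ac in WT, WTLPS, KO and KOLPS. Cd34, a marker of stem and progenitor cells, lost an H3K27ac call from WTLPS to KOLPS, and from WT to KO the T cell gene Cd4 and the endothelial gene Pecam1 lost one while Prtn3, a gene of granulocyte precursors, gained one. The part of such cells in the marks at Hoxb4 was not tested.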

How the data were processed

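ChIP-seq was carried out by tagmentation (Nextera) with paired-end HiSeq2500 sequencing. The submitters' processing notes name BWA 0.7.12, Picard 1.77, MACS2 2.1.2 and deepTools 3.1.3 with build mm10; the peak files were made by the authors. Each of the 34 samples was placed by its label, and 30 had a peak list. The study describes 2 biological replicates per condition, with peaks called per replicate and replicates merged later, and which of these a deposited list holds is not stated. The deposited lists give each peak a fold enrichment, a ratio to the local background, and −log10 p-values and q-values, with region means for the broad H3K27me3 and H3K4me1 lists. CTCF and SMC1 lists end at a −log10 p of 7. They hold no read totals. The study's supplement states totals for most libraries, which entered no calculation and are mentioned above only for the H3K27me3 and H3K4me1 libraries. Intervals (Wilson, 95%) cover counting error only.

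Overlap by at least 1 bp counted as a peak at a promoter or as a site called in another list (Python 3.11.15, NumPy 2.4.6, SciPy 1.17.1, matplotlib 3.10.9), checked on simulated peaks. All 38 members could be named, with genes of the other lists whose promoter call differed between WT and KO or that lay at a border, the 3 strongest CTCF and SMC1 sites of each cluster in WT, and every site inside a cluster that was also called in KO. Evx1, Hotairm1, Hottip and Skap2 were named after their values were seen, as were the SMC1 site beside Hotairm1 and the CTCF site at the HoxA border. The members and lists were chosen with earlier results of these data known. Evx1 and Evx2 stand in 2 lists. Alternatives were stricter q-values, other windows, gaps and overlaps, and lists cut to equal bases. With 1 list per group no test between conditions could be made.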

Additional observations from a re-analysis of the deposited data

Results flagged for a closer look

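The H3K27ac peaks between the end of Hoxb5 and the start of Hoxb3 moved in opposite directions with LPS in the 2 genotypes. Their number differed by 2 from WT to WTLPS (from 2 to 4) and by -2 from KO to KOLPS (from 8 to 6). Each condition had 1 list, and the difference between the genotypes was not tested. At equal total bases per list the counts were 1 and 1 in WT and WTLPS and 6 and 6 in KO and KOLPS, and with a −log10 q of at least 3 they were 2 and 2 and 8 and 5, so the opposite directions did not hold under either alternative.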

How the results depend on the processing

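No paired analysis was possible because each antibody and condition had 1 list. Of 212 values under an alternative, 125 moved by less than their interval or by less than 1.5 times, 86 moved further and 1 changed sign, and where no cause is given the cause was not tested. Alternatives on motif matches, on H3K27ac peaks and on equal bases for H3K4me3 were chosen after seeing the data. Values are in the order WT, WTLPS, KO, KOLPS unless named. With a −log10 q of at least 3, H3K27me3 lay at 12, 10, 1 and 1 promoters, both marks at 8, 4, 0 and 1, and H3K27me3 covered 108.0, 66.8, 16.2 and 5.07 kb. With 1 kb promoters KOLPS had 12 promoters with H3K27me3 and 5 with both marks. With 25% of the promoter covered, H3K27me3 lay at 13 in KOLPS, H3K4me3 at 5, 6, 7 and 5, both at 4, 4, 6 and 1, and H3K27ac at 0, 0, 0 and 0. At equal bases H3K4me3 lay at 4, 7 and 3 promoters and covered 15.6, 19.8 and 14.2 kb in WT, WTLPS and KO. Without flanks H3K27me3 covered 360.2, 263.7, 367.5 and 116.3 kb. KO minus WT, -10.9 kb with flanks, changed sign to 7.26 kb without flanks and was -91.8 kb at the stricter q. KOLPS minus WTLPS, -248.3 kb, was -147.4 kb without flanks, -101.9 kb at equal bases and -61.7 kb at the stricter q. WTLPS minus WT, -185.0 kb, was -96.5 kb without flanks, -280.6 kb with flanks of 100 kb and -41.2 kb at the stricter q. KOLPS minus KO, -422.4 kb, was -251.2, -221.5 and -11.1 kb without flanks, at equal bases and at the stricter q. Without joining, the longest domain was 11.6, 19.7 and 5.47 kb in HoxA (WTLPS, KO, KOLPS), 32.5, 10.9 and 27.9 kb in HoxB (WT, WTLPS, KO), 54.9 and 10.7 kb in HoxC (WT, WTLPS) and 13.5 and 6.73 kb in HoxD (WT, WTLPS). With gaps of 5 kb joined it was 109.3, 104.2, 104.8 and 42.3 kb in HoxA, 178.3, 68.7, 156.4 and 35.0 kb in HoxB, 227.9, 199.3, 216.3 and 55.3 kb in HoxC and 158.7, 163.9, 160.5 and 83.1 kb in HoxD. With 50% of the peak shared, 9.76% of CTCF sites in WT, 7.14% in WTLPS and 0 of the SMC1 sites in WTLPS were still called in the knockout; with a −log10 q of at least 10 the SMC1 shares were 5.88% in WT and 0 in WTLPS. The motif was present anywhere in 46.3% of peaks in WT and 38.1% in WTLPS, and with 1 letter free at 48.8%, 40.5% and 55.6% in WT, WTLPS and KO. At equal bases 1 H3K27ac peak was left near Hoxb4 in WT and 1 in WTLPS, and 2 in WTLPS at the stricter q.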
